A study of Mus musculus and synthetic RNA with 74 samples.

Results

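Levels of the other RNA methyltransferases were described in single mouse embryos from a study of METTL16, an enzyme that writes N6-methyladenosine (m6A) on RNA. The 10 genes were taken by name: Mettl1, Nsun2, Trdmt1, Mettl8, Fbl, Dimt1, Mettl5, Rnmt, Cmtr1 and Mettl4. All 10 were listed among 20330 genes at embryonic day (E) 2.5 and among 21199 genes at E3.5. The embryos came from crosses of heterozygous Mettl16 mice carrying a triple-stop cassette in exon 3, made by Cas9 injection into B6D2F1/J zygotes and then crossed to C57BL/6JRj. At E2.5, the morula stage, there were 5 wild-type (WT), 14 heterozygous (HET) and 12 homozygous mutant (KO) embryos. At E3.5, the blastocyst stage, there were 18 WT, 9 HET and 12 KO embryos. All mothers were superovulated HET females, and the genotype of each embryo was read by the authors from allele-specific Mettl16 reads of its own library. Polyadenylated RNA of each whole embryo was amplified with Smart-seq2, which does not record the strand.

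The values used are the authors' means over all embryos of a stage, with the 3 genotypes pooled. They carry no spread and no value for a single embryo, so no difference between genotypes is given and no pair of values can be said to differ beyond the spread between embryos. The depth of each library is unknown from these tables. In whole embryos, fewer cells of a type and less RNA per cell cannot be told apart. The tables of the 2 stages were normalized separately and hold the genotypes in different proportions, so a difference between stages and a difference in genotype mix cannot be told apart.

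RNA methyltransferases move a methyl group from S-adenosylmethionine onto a base or a ribose of RNA. Transfer RNAs (tRNAs) and ribosomal RNAs (rRNAs) carry the most kinds of methylation, which bear on their folding, stability and use in translation, and the 5′ cap of mRNA carries methyl groups that translation factors and innate immune sensors read. METTL16 itself methylates the U6 small nuclear RNA and hairpins of the Mat2a mRNA, which encodes the enzyme that makes S-adenosylmethionine, so the enzymes described here share a cofactor with METTL16 while their RNA substrates differ.

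The nonamer that METTL16 methylates in Mat2a was looked for in reference transcripts, because it is the sequence on which METTL16 is known to act in an mRNA. The letters searched were TACAGAGAA, on the transcript strand, in GENCODE M21 transcripts of the mm10 genome. Of 21877 protein-coding genes, 993 had it in a coding transcript (4.54%), and of the 10 methyltransferase genes 1 had it, Mettl5. Windows of 30 bases are given 5′ to 3′ with the nonamer in capitals, the fourth letter of which is the adenosine methylated in Mat2a. The first is from Mettl5 and the others are 2 of the 5 copies in Mat2a, for comparison.
Mettl5, chr2:69885362-69885370, minus strand: aaactttaaaaTACAGAGAAaacgatgaag
Mat2a, chr6:72432948-72432956, minus strand: ggctggtgtggTACAGAGAAgccagcttgt
Mat2a, chr6:72433461-72433469, minus strand: cccttgtgataTACAGAGAAgtcacagggc
The coordinates are those of the nonamer alone. The Mettl5 copy lay in exon 1 of 7, in the untranslated leader, and ended 4 bases before the start of the coding sequence. The Mat2a copies all lay in exon 9 of 9, after the coding sequence. The minimum free energy structure of the Mettl5 window held 0 paired bases of 30, whereas the first Mat2a window held 14, with the nonamer in the loop. Not all Mat2a copies folded so. In the windows of the copies at chr6:72433282 and chr6:72434245, not printed above, 3 and 2 of the 9 bases of the nonamer were paired. A match of letters is a description and not a methylated site, and no methylation of Mettl5 was measured here.

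As a check of the labelled stages, blastomere, trophectoderm and primitive endoderm markers were read in the same tables. The trophectoderm keratins Krt8 and Krt18 had mean normalized counts of 651 and 1332 at E2.5 and of 30840 and 35170 at E3.5, and Cdx2 stood at 171 and 1940. Of the 7 trophectoderm markers 6 had the higher mean at E3.5, and the other, Tfap2c, stood at 5278 and 1849. The pluripotency factor Pou5f1 stood at 9017 and 3527, and Nanog at 552 and 4161. Of the 8 blastomere and pluripotency markers, 6 had the higher mean at E3.5 and 2, Pou5f1 and Esrrb, the lower. Of the 5 primitive endoderm markers 4 had the higher mean at E3.5, with Gata6 at 3569 and 3676. The other, Gata4, stood at 1268 and 253. The 6 oocyte markers summed to 2119 at E2.5 and 146 at E3.5, and the blood markers to 91.8 over the 5 listed at E2.5 and to 33.6 over the 6 listed at E3.5. The 8 cumulus and granulosa markers summed to 31.1 over the 5 listed at E2.5 and to 135 over the 7 listed at E3.5, of which Star made up 26.8 and 128. The part of other cells in the values below was not tested.

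Per kilobase of transcript, all 10 genes stood above the median of all genes at both stages, 6 of them above the upper quartile at E2.5 and 7 at E3.5. The levels per kb spanned 132-fold between the lowest and the highest of the 10 at E2.5 and 39.9-fold at E3.5. At both stages Fbl and Nsun2 were the top pair and Trdmt1 and Mettl8 the bottom pair. Of 48 other genes of RNA methylation with a transcript length, 48 stood above the median of all genes at both stages, and 31 and 28 above the upper quartile, so a level in the upper part of the range was shared by the wider group.

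**Figure D1:**
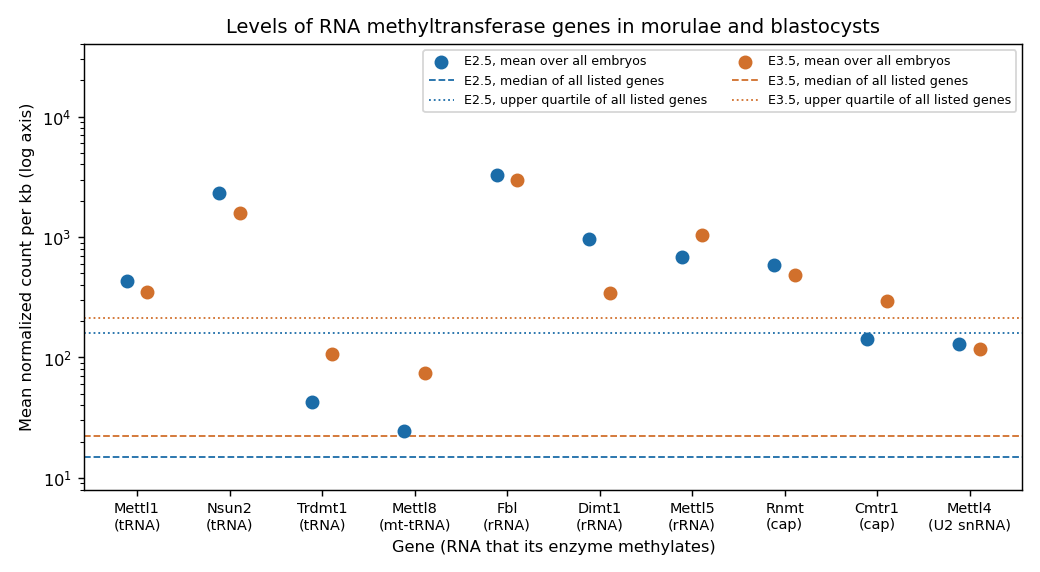
Mean normalized count per kb of transcript (log axis) of the 10 genes, ordered by the RNA that each enzyme methylates. Each point is the authors' mean over all embryos of 1 stage and has no error bar because no value per embryo was used; dashed lines are the medians of all listed genes (15.04 and 22.2 per kb) and dotted lines the upper quartiles (159 and 213 per kb), and no point lies below the median line of its stage.

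Among the enzymes of tRNA, Nsun2, which writes 5-methylcytosine on cytoplasmic tRNAs, had the highest level. Nsun2 (chr13:69612016-69635780, plus strand, 19 exons) had a mean normalized count of 9873 at E2.5 and of 6729 at E3.5. Per kb, this was 2307 and 1572, at the 95.4th and 92.93rd percentile of all genes. Mettl1, which writes 7-methylguanosine on tRNAs in a complex with the protein WDR4 (chr10:127041932-127045461, plus strand, 6 exons), stood at 382 and 310.3, or 431 and 350 per kb. Its partner Wdr4 stood at 2688 and 928, or 691 and 239 per kb. Their order per kb is not given, since the Mettl1 level fell to 213.5 and 173 with the longest GENCODE transcript as the length.

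Trdmt1, formerly named Dnmt2, methylates a cytosine in the anticodon arm of a few tRNAs. It lies at chr2:13510161-13544664 on the minus strand with 11 exons, and had a mean of 112 at E2.5 and 281 at E3.5, or 42.6 and 107 per kb. Mettl8, which writes 3-methylcytosine on mitochondrial tRNAs (chr2:70964561-71055606, minus strand, 10 exons), had the lowest level of the 10 genes, with a mean of 52.7 and 158, or 24.7 and 74.0 per kb. Both genes were at the lower end of the range at E2.5 and stood higher at E3.5.

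Among the enzymes of rRNA, Fbl encodes fibrillarin, which methylates riboses of rRNA in nucleolar particles guided by C/D box small nucleolar RNAs. Fbl (chr7:28169748-28179269, plus strand, 9 exons) had a mean of 3765 at E2.5 and 3419 at E3.5, or 3249 and 2950 per kb, the highest level per kb of the 10 genes. The scaffold proteins of the same particles stood higher still per kb, with Nop56 at 6681 and 6734 and Nop58 at 7622 and 5035. The fourth core protein, Snu13, had means of 16810 and 14970 and no length in the exon table.

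Dimt1, which dimethylates a pair of adjacent adenosines near the 3′ end of 18S rRNA (chr13:106947129-106960224, plus strand, 12 exons), had a mean of 2440.5 at E2.5 and 866 at E3.5, or 959 and 340.4 per kb. Per kb of whole transcript, its rank among the 10 genes went from 3 at E2.5 to 6 at E3.5. Mettl5 writes m6A on 18S rRNA and needs TRMT112 for its stability. Mettl5 (chr2:69871195-69885615, minus strand, 7 exons) had a mean of 637 at E2.5 and 970.2 at E3.5, or 685 and 1044 per kb. Trmt112, which also partners several other methyltransferases, stood at 3176 and 5121 per kb.

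Among the enzymes of the cap, Rnmt writes the N7-methyl group of the cap guanosine and Cmtr1 the ribose methyl group of the first transcribed nucleotide. Rnmt (chr18:68300355-68324852, plus strand, 11 exons) had a mean of 2867 at E2.5 and 2402 at E3.5, or 582 and 488 per kb. Fam103a1, its activating subunit, stood at 2131 and 1457 per kb. Cmtr1 (chr17:29660595-29705979, plus strand, 24 exons) had a mean of 909 and 1893, or 142 and 297 per kb. Cmtr2, which methylates the second transcribed nucleotide, stood far below Cmtr1 at 26.3 and 24.8 per kb, and Pcif1, which writes m6A on a cap-adjacent adenosine, at 64.3 and 94.4 per kb.

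Mettl4, which methylates an adenosine of the U2 small nuclear RNA (chr17:94727080-94749892, minus strand, 9 exons), had a mean of 276 at E2.5 and 254 at E3.5, or 128 and 118 per kb. For scale, Mettl16 had means of 778 and 669.5 over all genotypes, or 286 and 246 per kb. Mat2a, the METTL16 substrate, had means of 29050 and 4664, or 10360 and 1663 per kb. Per kb, Mettl16 thus lay between Mettl1 and Cmtr1 at E2.5, and between Cmtr1 and Mettl4 at E3.5. Since the Mettl16 means include the KO embryos, they check no label.

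In the order per kb, several neighbours lay close together. At E2.5 the order from the highest was Fbl, Nsun2, Dimt1, Mettl5, Rnmt, Mettl1, Cmtr1, Mettl4, Trdmt1 and Mettl8. Cmtr1 was 1.11 times Mettl4, while Mettl1 was 3.03 times Cmtr1 and Mettl4 3.01 times Trdmt1. At E3.5 the order was Fbl, Nsun2, Mettl5, Rnmt, Mettl1, Dimt1, Cmtr1, Mettl4, Trdmt1 and Mettl8, with Mettl1 1.03 times Dimt1 and Mettl4 1.11 times Trdmt1. With no spread between embryos, neighbours in either order cannot be said to differ. The last exon had the lowest level per kb at E2.5 in Dimt1, Rnmt, Trdmt1, Nsun2, Cmtr1 and Mettl8. In Dimt1 it made up 1570 of 2545 bases and stood at 136.6 per kb, against 2945 or more in the other exons. A length without last exons was not tried, so the order holds for whole transcripts only. With the longest GENCODE transcript as the length, Fbl had 1562 per kb at E2.5 and 1418 at E3.5 against 2371 and 1616 for Nsun2, which reversed the top pair, and Mettl4 (38.2 per kb) was the lowest of the 10 at E3.5. Mettl5 then had 305 and 464 per kb.

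Between the stages, the 10 genes did not all differ in 1 direction. The ratio of the E3.5 mean to the E2.5 mean was taken on the log2 scale and centred on the median of 11774 genes with a mean of at least 10 at both stages, which removed a shift of 0.55 that these genes had in common. After centring, 4 values were above 0, those of Mettl8 (1.04), Trdmt1 (0.77), Cmtr1 (0.51) and Mettl5 (0.06). The other 6 were below 0, with Dimt1 (-2.04) and Nsun2 (-1.10) the lowest and Mettl1 (-0.85), Rnmt (-0.80), Fbl (-0.69) and Mettl4 (-0.67) near each other. The signs were the same under all 5 ways of computing the ratio, which for Mettl5 gave values from 0.06 to 0.61 and for Mettl4 from -0.67 to -0.12.

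None of the 10 values lay outside the range from -2.55 to 2.60 that held the middle 90% of all genes, and the value of Dimt1 was at the 8.434th percentile. The median of the 10 values was -0.68 centred and -0.13 as deposited. Of 50 other genes of RNA methylation, 36 lay below 0 and 14 above, with a median of -0.61, and without centring 26 lay below and 24 above. Partner genes lay at -2.08 for Wdr4, beside -0.85 for Mettl1, at -0.54 for Nop56, -1.15 for Nop58 and -0.71 for Snu13, beside -0.69 for Fbl, at -1.10 for Fam103a1, beside -0.80 for Rnmt, and at 0.14 for Trmt112, beside 0.06 for Mettl5. Mettl16 itself was at -0.76 and Mat2a at -3.19. These are differences between pooled means, with no test. The ends of the genes, described next, also differed between the stages, and the part of this in the differences of the gene means was not tested.

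**Figure D2:**
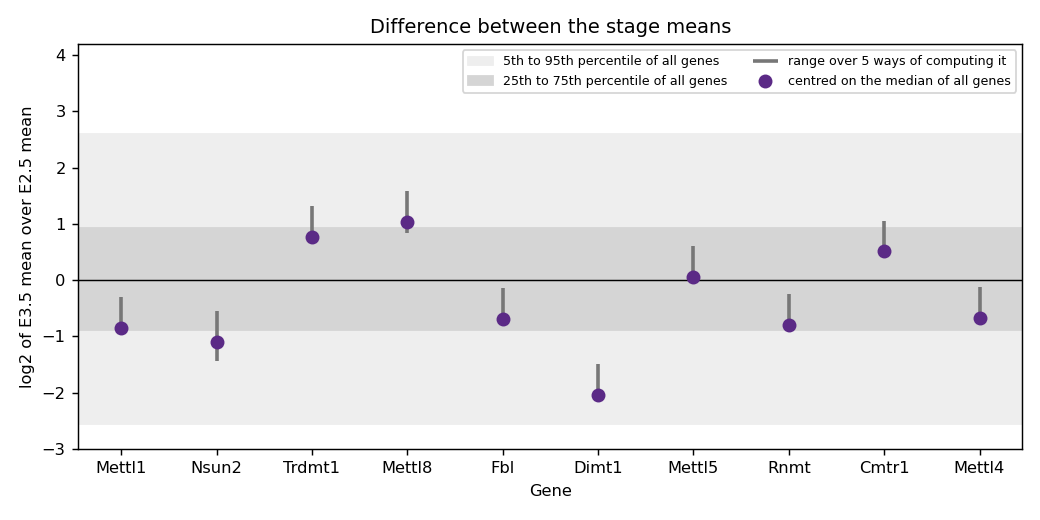
log2 of the E3.5 mean over the E2.5 mean of each gene. Points are centred on the median of 11774 genes, vertical lines span 5 ways of computing the ratio and are no error bars, and the grey bands hold the middle 50% and 90% of all genes; Dimt1 lies lowest at -2.04, Mettl8 highest at 1.04, and no line crosses 0.

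The mean of a gene joins all its exons. In the values of single exons, the signal of most genes lay further toward the last exons at E3.5. For each gene the log2 ratio of the summed last 3 exons to the summed first 3 exons was taken at each stage, and the E2.5 value subtracted from the E3.5 value. Among 5602 genes with at least 6 exons whose mean reached 100 at both stages, this difference was above 0 in 93.6%, with a median of 1.47. It was above 0 in 9 of the 10 methyltransferase genes, with a median of 1.57, which is near the value of all genes. On the scale of the deposited means, without centring, the median log2 was -1.40 for the first exon (4693 genes) and 0.59 for the last (5460 genes). Of these, 14.5% and 69.3% were higher at E3.5. Only exons with a mean of at least 10 at E2.5 and above 0 at E3.5 entered. This filter favours exons that were higher at E2.5, and the 2 medians cover different sets of genes.

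Fbl and Nsun2 had the largest differences of the 10 genes, 3.10 and 3.05, at the 93.52nd and 92.88th percentile of all genes. In Nsun2, 18 of 19 exons were lower at E3.5. Exon 1 had means of 719 at E2.5 and 46.7 at E3.5, which is 6.5% of the E2.5 value, while exon 19, the last, had 3414 and 4240. Per kb the exon means climbed unevenly along the gene at E3.5, from 270.2 in exon 1 to 4101 in exon 16 and 11600 in exon 18. Exon 18 is only 40 bases long and was also the highest at E2.5, and exon 19 stood at 1919 at E3.5. At E2.5 exons 2 to 18 lay between 6083 and 18070, and exons 1 and 19 at 4155 and 1545. In Fbl, exons 1 to 6 were lower at E3.5 and exons 7 to 9 higher. Exon 2 had means of 409 and 29.6, and exon 8 had 914 and 1301. The Fbl mean of the whole gene thus joined an upstream part at 7.26% of its E2.5 value in exon 2 and a downstream part that was higher.

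**Figure D3:**
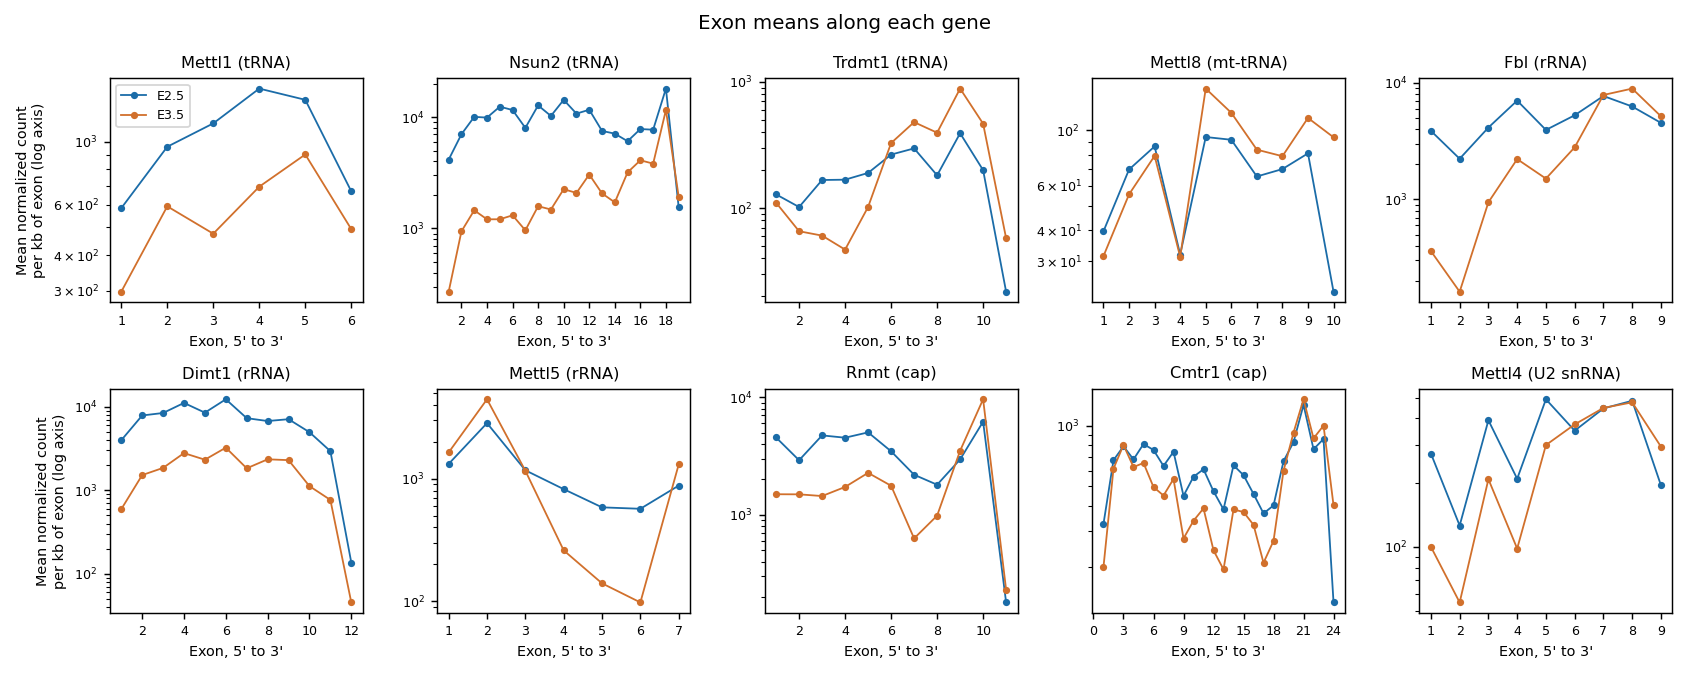
Mean normalized count per kb of each exon (log axis) against exon number from 5′ to 3′, for E2.5 and E3.5, in 1 panel per gene. Each point is the authors' mean over all embryos of a stage, with no error bar; in Nsun2 and Fbl the 2 lines lie far apart at the left and meet at the right, in Dimt1 and Mettl1 the E3.5 line lies lower at every exon, and in Mettl5 the lines part in the middle.

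Dimt1 and Mettl1 were lower along their whole length. All 12 exons of Dimt1 were lower at E3.5, by log2 values from -2.74 in exon 1 to -1.52 in exon 8, with exon 7 at means of 907 and 228. The difference between its ends was 0.49, at the 15.92nd percentile. All 6 exons of Mettl1 were lower, by log2 values from -1.29 in exon 3 to -0.44 in exon 6, and its difference was 0.25, at the 10.21st percentile. These 2 genes were the only members of the 10 with no exon higher at E3.5.

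Trdmt1, Mettl8, Rnmt, Cmtr1 and Mettl4 had differences near the middle of all genes, between 1.46 for Mettl4 (49.86th percentile) and 1.95 for Trdmt1 (68.01st percentile). In Trdmt1, exons 1 to 5 were lower at E3.5 and exons 6 to 11 higher, with means of 12.1 and 3.38 in exon 4 and of 33.3 and 88.4 in the last exon. In Mettl8, the last exon had means of 25.4 and 105, while the 9 exons before it had means between 4.70 and 10.9 at E2.5 and between 7.28 and 11.7 at E3.5. The higher Mettl8 mean at E3.5 thus lay mostly in the last exon of the gene, and its exons 1 to 4 were no higher than at E2.5.

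In Cmtr1, the last of 24 exons had means of 508 and 1542, and 18 of the 24 exons were lower at E3.5. Of its exons, 22 overlap exons of the Rnf8-cmtr1 readthrough gene, so the signal there cannot be assigned to 1 gene. Exons 17 to 21 and 24 also overlap Ccdc167 on the opposite strand, which reads without strand cannot tell apart. In Rnmt, exons 1 to 8 were lower at E3.5 and exons 9 to 11 higher, with means of 361 and 104 in exon 7 and of 210.5 and 326 in exon 10. In Mettl4, exon 1 had means of 42.7 and 15.6 and the last exon 61.5 and 93.2, with the exons 6 to 8 nearly equal between the stages, between 98.3% and 107% of the E2.5 value.

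Mettl5 was the one gene of the 10 whose difference lay below 0, at -0.32, the 3.374th percentile of all genes. With only the first and the last exon it was 0.26. Exons 6 and 7, among the last 3 exons, overlap exons of the gene Ssb, and with overlapping exons left out Mettl5 had no value. The pattern along the gene was not a slope. Exons 1 and 2, at the 5′ end, and exon 7, the last, were higher at E3.5, with means of 327 and 512 in exon 2 and of 107 and 159.5 in exon 7. The exons between them were lower the further they lay downstream, with 68.2 and 21.6 in exon 4, 30.3 and 7.27 in exon 5, and 28.4 and 4.88 in exon 6. Per kb, exon 2 was 5.01 times exon 6 at E2.5 and 45.6 times at E3.5.

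The intron between exons 4 and 5 of Mettl5 (chr2:69873936-69879101, 5166 bases) had means of 65.7 at E2.5 and 134 at E3.5. Per kb this was 12.8 and 26.1 (exon 5: 583 and 140), so the intron lay below the exons per base while it was higher, and exon 5 lower, at E3.5. It held 69.7% of the signal summed over all 6 introns of the gene at E3.5, including introns 5 and 6, which overlap Ssb exons. GENCODE has a retained-intron transcript there, Mettl5-203. Its last exon runs from exon 4 for 1354 bases into this intron and does not include exons 5 to 7. Another retained-intron transcript, Mettl5-202, covers the 115 bases of the intron next to exon 5. Exons 6 and 7 overlap exons of the gene Ssb on the opposite strand, so signal in exons 6 and 7 cannot be assigned to Mettl5 alone. The exon means of the leader, where the nonamer lies, were 485 at E2.5 and 601 at E3.5 in exon 1.

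**Figure D4:**
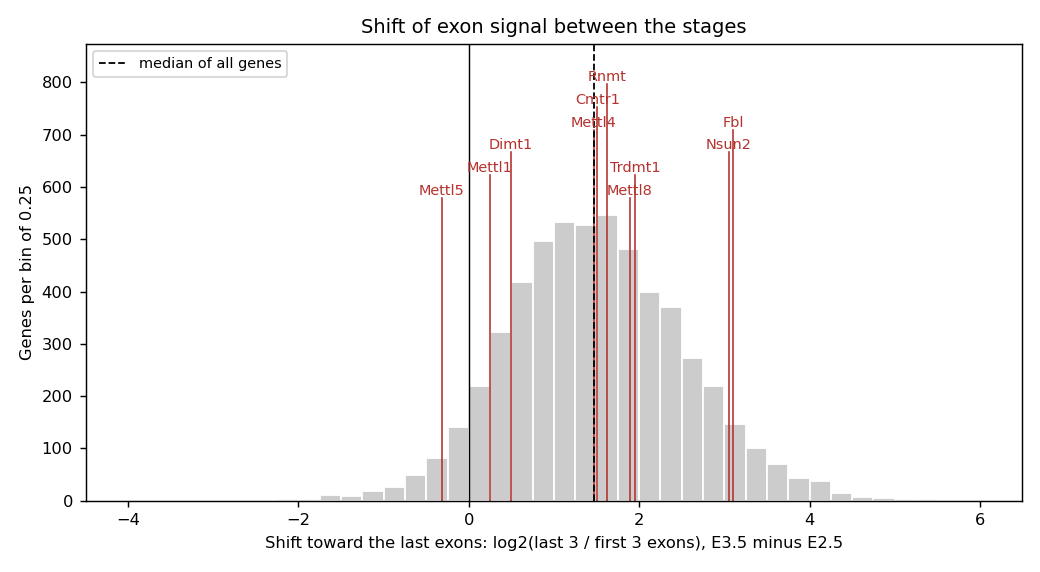
Number of genes (of 5602) by the shift of exon signal toward the last 3 exons from E2.5 to E3.5, on the log2 scale in bins of 0.25. Red lines mark the 10 methyltransferase genes, of which Mettl8 has a mean under 100 at E2.5 and is not counted in the bars; the dashed line is the median of all genes (1.47), Mettl5 lies lowest at -0.32, and Fbl and Nsun2 lie highest at 3.10 and 3.05.

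Intron signal was below 2% of the exon signal in 9 of the 10 genes at both stages, and higher in Mettl1. The level per kb of introns was expressed as a percent of the level per kb of exons of the same transcript. The median over 7309 genes whose mean reached 100 at both stages was 0.646% at E2.5 and 1.21% at E3.5, and 80.8% of these genes had the higher value at E3.5. The median over the 10 methyltransferase genes was 0.61% and 1.12%, and all 10 had the higher value at E3.5. When the median over introns replaced their sum, 7 of 10 did, and Mettl5, Fbl and Cmtr1 had the lower value at E3.5.

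Mettl1 had the highest values, 2.06% at E2.5 and 8.06% at E3.5, at the 82.06th and 93.73rd percentile. The signal lay mostly in its second intron (chr10:127043224-127044466), with means of 28.2 and 89.6, or 79.5% of its intron signal at E3.5. GENCODE annotates a retained-intron transcript, Mettl1-203, over the first 779 of the 1243 bases of that intron. All 6 exons of Mettl1 were lower at E3.5, whereas introns 1, 2, 3 and 5 were higher, and intron 4 was lower, with means of 11.1 and 1.84. With the median over introns in place of their sum, Mettl1 had 1.178% and 3.458%.

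Nsun2, with 0.123% and 0.373%, and Fbl, with 0.277% and 0.287%, had the lowest intron values at E3.5, and these are the genes with the highest exon levels. Rnmt had 0.841% and 1.41%, with means of 57.5 and 114 in its seventh intron, where GENCODE has retained-intron transcripts at both ends, and 0.222% and 0.321% with the median over introns. Cmtr1 had 0.751% and 1.47%, from 18 of its 23 introns. Its second intron alone had means of 18.8 and 132, or 50.7% of the signal summed over all 23 introns at E3.5. The Cmtr1 value became 1.47% at E2.5 when introns over RefSeq exons of other genes were kept. It became 0.604% at E3.5 with the median over introns. Cmtr1 introns 10, 11 and 13 to 15 were kept but lie partly or wholly over GENCODE exons of Ccdc167 on the opposite strand. Introns 1 to 3 of Nsun2 lie so over Gm17108. Signal in these introns cannot be assigned to 1 gene. In Dimt1, where the percent was 0.565 and 1.21, the fourth intron is 75 bases long and stood at 677 per kb at E2.5 and 248 at E3.5, far above the other introns of the gene. Its means were 37.2 and 13.7, while intron 2, of 1041 bases, had 39.7 and 8.71. Intron 5, of 83 bases, stood at only 69.52 per kb at E2.5 and 69.85 at E3.5. The part of the short length in the level per kb of intron 4 was not tested. The retained-intron transcript Dimt1-203 covers intron 4 whole. It also covers intron 3 whole, which stood at only 19.4 and 10.4 per kb.

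**Figure D5:**
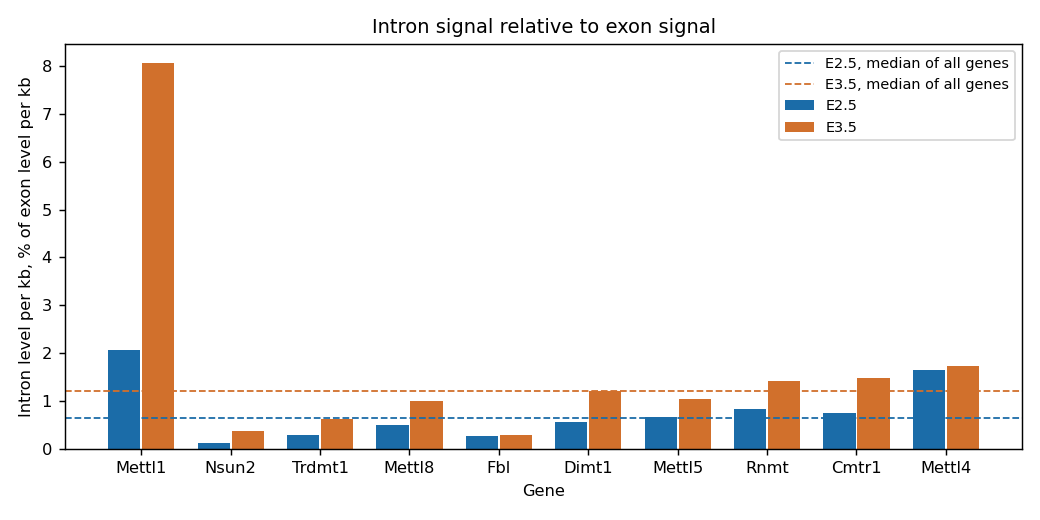
Level per kb of introns as a percent of the level per kb of exons, for each gene at E2.5 and E3.5. Bars start at 0 and are single values from the authors' means, with no error bar, and dashed lines are the medians of 7309 genes (0.646% and 1.21%); Mettl1 stands apart at 2.06% and 8.06%, and each gene has its higher bar at E3.5, which for Fbl differs by 0.277% against 0.287%.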

How the data were processed

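The study amplified polyadenylated RNA of single E2.5 and E3.5 mouse embryos with Smart-seq2. The deposited tables give a signal per gene and per exon or intron: the authors' mean, over all embryos of a stage, of counts divided by DESeq2 size factors (version 1.18.1). Gene values came from Salmon (version 0.7.2) on RefSeq transcripts of mm10. Exon and intron values came from STAR and featureCounts, with introns shortened by 10 nt on each side. Other columns of these tables hold the authors' log2 fold changes and adjusted p-values of KO against WT, KO against HET and HET against WT. They are the authors' own comparisons and were not used, so no genotype effect, error or test is given. The in vitro methylation table holds synthetic RNAs and was not used.

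From these means, Python 3.11.15 with pandas 2.3.3 computed levels per kb (mean transcript length of a gene in the exon table), percentiles among all listed genes, stage ratios centred on genes whose mean reached 10, the ratio of the last 3 to the first 3 exons with a pseudocount of 1, and intron to exon ratios without introns that overlap RefSeq exons. The transcript with the most exons stood for each gene. The ratio of exon ends was tested on simulated data. Structures were computed with RNAfold 2.7.2, and transcripts were those of GENCODE M21. All 10 genes are named. Of the other RNA methyltransferase genes, only direct partners (Wdr4, Trmt112, Fam103a1, Nop56, Nop58, Snu13), Cmtr2 and Pcif1 are named, with Mettl16 and Mat2a for scale. The 10 genes and the lists were chosen with earlier results of these data known. No search was made for genes of like pattern, since 2 stage means give no measure of likeness. Alternatives covered the length, the scaling between stages, filters, the choice of exons and the summary over introns.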

Additional observations from a re-analysis of the deposited data

How the results depend on the processing

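The levels rest on pooled means, so precision is unknown and leaving out single embryos was not possible. No paired analysis was possible because the tables used hold no value per embryo and no test was made. The median level per kb of the 10 genes at E2.5 was 507 and became 259 with the longest GENCODE transcript as the length. The median intron to exon ratio at E3.5 was 1.12% and became 0.522% with the median over introns. The median stage ratio of -0.68 became -0.13 as deposited and -0.33 divided by the table total, on the log2 scale. Levels, ranks and intron ratios under the other alternatives stayed within 1.5 times for the median of the 10 genes, and the sign of the stage ratio of each gene held with values as deposited, divided by the table total, from summed exons and with genes of a mean of at least 100. The alternatives for the shift toward the last exons were chosen after the data were seen. When exons overlapping other genes were left out, Mettl5 and Cmtr1 kept too few exons and had no value. With the first and last exon alone, the Mettl5 value of -0.32 became 0.26. That of Nsun2 became 4.23, of Dimt1 1.16 and of Cmtr1 2.29, and that of Fbl became 3.99 with 2 exons at each end. In each case the cause was not tested beyond the change of length, introns or exons itself. The stage tables differ in genotype mix and scaling, which cannot be told apart from stage.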
